A study of Mus musculus with 24 samples.

Results

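The last sampled day of dissected static culture was set against the last sampled day of intact static culture in retinal organoids, 3-dimensional retinal tissue grown here from mouse embryonic stem cells. Members were chosen by culture and day alone: 3 libraries of dissected tissue at day 28 (SSCd D28) and 3 libraries of intact organoids at day 32 (SSCi D32), 6 of the 24 libraries of the series, with all genes. SSCd D28 organoids had their optic cups cut out at day 10 and were kept in static suspension culture. Serum, B27 without vitamin A and non-essential amino acids joined their medium at day 18, which made 10 days of supplements by D28. SSCi D32 organoids were never dissected and received the same supplements from day 26, which made 6 days by D32. Both cultures otherwise shared a medium with N2 supplement, taurine, 9-cis retinal and insulin-like growth factor 1. Dissection, age and length of supplement exposure differed together, so their effects on any gene below cannot be told apart. Further groups used were SSCd D18 (3 libraries), SSCi D25 (2 libraries, sampled 1 day before the supplements) and SSCi D18 (2 libraries). SSCd D22 (3 libraries) and a dissected culture in a rotating-wall bioreactor, RWB (D18 with 2 libraries, D22 and D25 with 3 each), with the medium and supplement day of SSCd, entered the fit and the time courses. The stem cells were wild type, from a line made from Nrl-GFP transgenic mice and from the R1 line, and the labels do not say which library came from which line. The series describes repeated experiments as biological replicates.

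A retina forms its cell types in a set order from shared progenitors, with ganglion, horizontal, cone and amacrine cells early and rods, bipolar cells and Müller glia late. Rods sense dim light and pass their signal through a ribbon synapse to bipolar cells. Müller glia span the tissue, take up glutamate and handle retinoids. Organoids repeat much of this order in culture.

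Total estimated counts were 17271602, 15981153 and 13900055 in SSCd D28 replicates 1, 2 and 3, against 15333844, 13503732 and 13284632 in SSCi D32. Mitochondrially encoded genes took 2.87% to 3.77% of counts in SSCd D28 and 3.98% to 4.4% in SSCi D32. The rod markers Nrl, Nr2e3, Gnat1, Sag and Pde6b were present in all 6 libraries, with Nrl at 624 to 1649 CPM (estimated counts relative to library size, TMM-scaled) in SSCd D28 and at 1161 to 1293 CPM in SSCi D32. Some markers of other sources were near 0, with 1 estimated count of Krt5, 4 of Rpe65, 4 of Cdh5 and 7 of C1qa over the 6 libraries together. Others were present. Ttr of choroid plexus had 3.07 to 87.4 CPM in SSCd D28 and 0.218 to 41.2 CPM in SSCi D32, Pmel of pigment cells 4.44 to 48.9 CPM and 0.823 to 3.78 CPM, Col1a2 of mesenchyme 6.90 to 76.6 CPM and 3.28 to 10.2 CPM, and Mbp of oligodendrocytes 25.9 to 41.9 CPM and 32.1 to 34.1 CPM. Mog, another oligodendrocyte marker, had only 1.77 to 5.06 CPM and 1.58 to 2.11 CPM, so Mbp alone does not show that cell type. The part of these sources in the results was not tested. Ganglion cell marker Pou4f2 reached 1.85 CPM at most. SSCd D28 replicate 3 stood apart from its group: its rank correlation across genes was 0.926 with replicate 1 and 0.942 with replicate 2, against 0.975 between those and 0.982 to 0.986 among SSCi D32 libraries. Its rod markers summed to 13420 CPM, against 32160 and 24170 CPM in the other SSCd D28 libraries, and its amacrine markers to 2408 CPM, against 1339 and 1435 CPM. In SSCi D18, used below only for the change since day 18, replicate 1 stood apart with mesenchyme markers summing to 8518 CPM, against 158 CPM in replicate 2.

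Few genes passed the test between the endpoints. Of 16792 genes tested with the quasi-likelihood F-test of edgeR, adjusted by Benjamini-Hochberg across the whole table, 14 (0.0834%) were called at an adjusted p under 0.05, 6 higher (0.0357%) and 8 lower (0.0476%) in SSCd D28. At an unadjusted p under 0.05 there were 954 (5.68%), 426 higher (2.54%) and 528 lower (3.14%). The libraries of the 2 groups did not overlap for 2973 genes (17.7%). The median log2 fold change of all tested genes was 0.03, with 45.1% of genes below 0. Of the 14, the gene ID ENSMUSG00000111628.2 carried the same estimated counts as Rims1 in every library, so the calls hold 13 distinct patterns. Leaving out SSCd D28 replicate 1, 2 or 3 left 5, 3 or 7 calls, and leaving out SSCi D32 replicate 1, 2 or 3 left 1, 4 or 3.

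**Figure D1:**
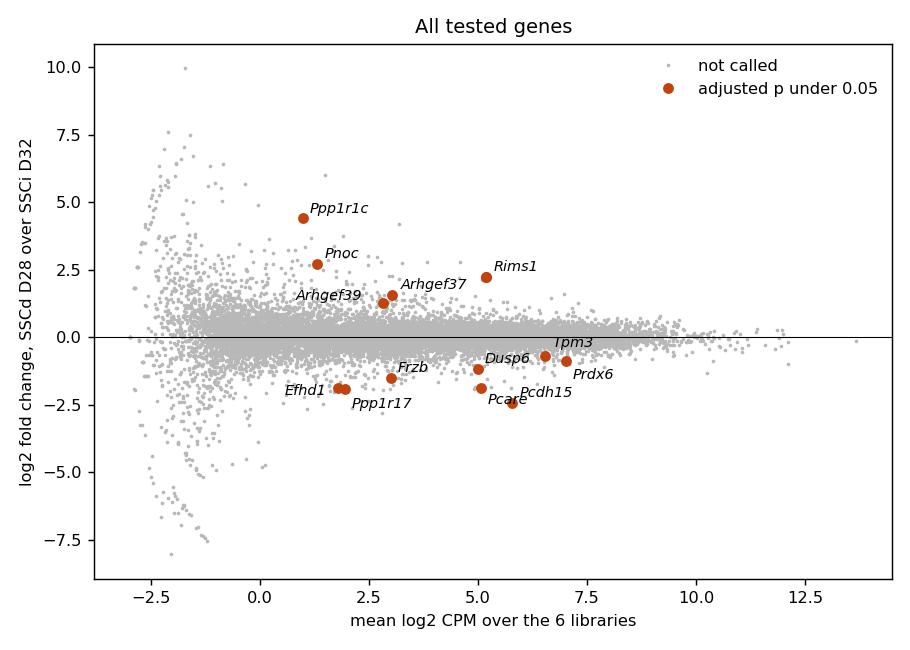
Log2 fold change of SSCd D28 over SSCi D32 (vertical axis) against mean log2 CPM over the 6 libraries (horizontal axis) for each of 16792 tested genes, with called genes as large orange points. Most genes lie near 0, and the called genes range from 4.42 for Ppp1r1c to -2.42 for Pcdh15.

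Pcdh15, a cadherin of hair cell tip links that is also found in photoreceptors, fell. It had 32.0, 26.2 and 15.4 CPM in SSCd D28, against 142, 102 and 152 CPM in SSCi D32. All 3 dissected libraries were below all 3 intact ones, by a wide gap. Its log2 fold change was -2.42 ± 0.30 (SE; adjusted p = 0.00228, edgeR). It was the only gene called in each of the 6 analyses that left out 1 library, with log2 fold changes of -2.66 to -2.18 and adjusted p up to 0.0202. Against the earlier intact day it was lower too, since SSCi D25 had 129 and 107 CPM (log2 fold change -2.26, adjusted p = 0.000259). The dissected rotating culture, RWB, averaged 215 ± 42.4 CPM at D25 (SD, n = 3), a level above both static endpoints but taken on another day.

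Pcare, which shapes the actin that starts new discs at the photoreceptor outer segment and is a retinitis pigmentosa gene, also fell. It had 25.8, 19.8 and 9.22 CPM in SSCd D28, against 80.1, 48.4 and 73.9 CPM in SSCi D32. The groups did not overlap, with the lowest library being SSCd D28 replicate 3, where rod markers were also lowest. Its log2 fold change was -1.88 ± 0.36 (adjusted p = 0.0491, edgeR). The call was lost when any 1 of the 6 libraries was left out, with adjusted p up to 0.299 and log2 fold changes of -2.21 to -1.56. Its level at SSCi D25, 33.3 and 39.7 CPM, differed from that of SSCd D28 by a log2 fold change of -1.0 that did not pass (adjusted p = 0.134).

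The windows before the starts of these photoreceptor genes were read for the core motif of CRX (TAATCC) and of NRL (TGCTGA), transcription factors of photoreceptors, and for a TATA box (TATAAA), on both strands. The sequences below are the 250 bases before the annotated RefSeq start on GRCm38.p6, at chr10:73821617-73821866 on the plus strand for Pcdh15 and chr17:71752906-71753155 on the minus strand for Pcare. Most reads of Pcdh15 were assigned to transcripts that begin just after its window, among them Pcdh15-234 with 52.5% of the gene in SSCd D28 and 57.5% in SSCi D32. Matches are in capitals.
Pcdh15: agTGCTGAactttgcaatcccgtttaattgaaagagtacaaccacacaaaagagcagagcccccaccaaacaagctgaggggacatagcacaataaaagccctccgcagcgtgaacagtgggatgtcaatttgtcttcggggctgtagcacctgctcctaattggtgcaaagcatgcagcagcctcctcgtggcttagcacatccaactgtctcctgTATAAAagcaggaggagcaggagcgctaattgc
Pcare: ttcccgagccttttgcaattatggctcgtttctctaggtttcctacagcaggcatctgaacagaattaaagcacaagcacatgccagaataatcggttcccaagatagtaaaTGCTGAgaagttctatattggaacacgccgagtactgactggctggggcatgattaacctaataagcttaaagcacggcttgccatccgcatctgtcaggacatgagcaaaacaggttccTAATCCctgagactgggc
Pcdh15 holds an NRL core at position 3 of the window and a TATA box at position 218, and Pcare holds an NRL core at position 113 and a CRX core at position 233. Over the windows of 27025 genes, 6.38% held the CRX core, 15.8% the NRL core and 13.0% the TATA box. Windows of other called genes were read too. That of Efhd1 held a CRX core at position 64, and those of Dusp6, Frzb, Arhgef39, Ppp1r1c and Rims1 held no match. A match is a stretch of letters and not a measured binding site.

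Rims1, an active zone scaffold that organises synaptic vesicle release and sits at the photoreceptor ribbon, rose. It had 60.0, 84.2 and 99.1 CPM in SSCd D28, against 13.5, 21.7 and 16.0 CPM in SSCi D32. Every dissected library was above every intact one. Its log2 fold change was 2.25 ± 0.30 (adjusted p = 0.00228, edgeR), and the call held in 5 of the 6 leave-outs and was lost without SSCi D32 replicate 1 (adjusted p = 0.0551). The value in SSCi D25, 58.9 and 48.5 CPM, was closer to SSCd D28 (log2 fold change 0.59, adjusted p = 0.328), and SSCi D32 was the lowest of these 3 groups. The largest share of the reads was assigned to Rims1-207, at chr1:22286915-22315805 on the minus strand of GRCm38, a transcript that begins deep inside the gene. It had 33.2, 48.5 and 56.8 CPM of library totals in SSCd D28, against 6.16, 10.7 and 7.03 CPM in SSCi D32. It carried 63.0% of the gene in SSCd D28 and 46.5% in SSCi D32. The RefSeq promoter window of Rims1 lies far upstream of that start and is not shown. Because the other gene ID carries the same values, reads may be shared between these entries and the level of Rims1 itself is uncertain.

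**Figure D2:**
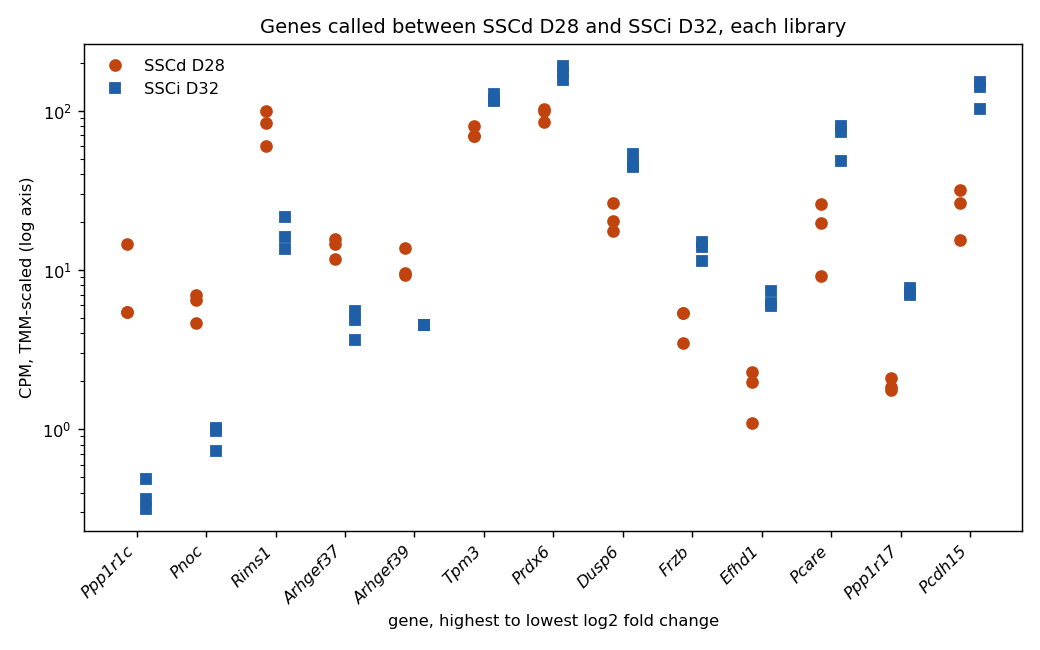
TMM-scaled CPM (log axis) of the 13 called genes with a symbol, 1 point per library, with SSCd D28 as circles left of SSCi D32 as squares. Groups do not overlap for any of these genes, and the gap is widest for Ppp1r1c, whose SSCi D32 libraries lie between 0.316 and 0.489 CPM.

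Tpm3, a tropomyosin that lines actin filaments, fell by 0.71 on the log2 scale. It had 69.2, 80.5 and 69.2 CPM in SSCd D28, against 127, 116 and 116 CPM in SSCi D32 (adjusted p = 0.0489, edgeR). No library of either group reached the other group. SSCi D25 was as high as SSCi D32, with 129 and 127 CPM (log2 fold change of SSCd D28 over SSCi D25 -0.81, adjusted p = 0.00174). The gene has an upstream start, which gives long tropomyosins, and a downstream start, which gives short ones. Tpm3-204 from the upstream start had 24.9, 24.1 and 21.4 CPM of library totals in SSCd D28, against 53.5, 63.4 and 58.9 CPM in SSCi D32. Tpm3-201 from the downstream start went the other way, with 18.7, 26.2 and 16.1 CPM in SSCd D28, against 7.60, 4.37 and 6.47 CPM in SSCi D32. Both differences left no overlap between groups. Tpm3-204 made up 32.1% of the gene in SSCd D28 and 54.8% in SSCi D32, and Tpm3-201 made up 27.8% in SSCd D28 and 5.74% in SSCi D32. Summed over the 2 transcripts that begin upstream, SSCd D28 had 26.8, 27.3 and 22.4 CPM, against 62.6, 70.8 and 67.3 CPM in SSCi D32. Summed over the 4 that begin downstream, SSCd D28 had 40.6, 50.0 and 44.8 CPM, against 37.1, 38.7 and 30.7 CPM in SSCi D32. The downstream transcripts did not share 1 direction: Tpm3-202 had 13.1, 11.9 and 20.1 CPM in SSCd D28, against 21.5, 20.4 and 13.1 CPM in SSCi D32, with overlap. The upstream sums were lower without overlap, and the downstream sums were higher without overlap, by a narrow gap. Transcripts that share exons divide reads by estimate, and no transcript was tested, so these are descriptions chosen after the values were seen.

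The windows before both Tpm3 starts are shown because Tpm3-204 and Tpm3-201, which follow them, differed in opposite directions. They are the 250 bases before each RefSeq start on the plus strand of GRCm38.p6, at chr3:90072401-90072650 upstream and chr3:90079271-90079520 downstream, with CG dinucleotides in capitals.
Tpm3 upstream start: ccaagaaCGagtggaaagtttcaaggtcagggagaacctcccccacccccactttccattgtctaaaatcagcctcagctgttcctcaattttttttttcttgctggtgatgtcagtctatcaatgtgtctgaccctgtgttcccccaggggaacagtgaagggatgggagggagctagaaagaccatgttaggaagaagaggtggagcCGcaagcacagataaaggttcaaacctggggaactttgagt
Tpm3 downstream start: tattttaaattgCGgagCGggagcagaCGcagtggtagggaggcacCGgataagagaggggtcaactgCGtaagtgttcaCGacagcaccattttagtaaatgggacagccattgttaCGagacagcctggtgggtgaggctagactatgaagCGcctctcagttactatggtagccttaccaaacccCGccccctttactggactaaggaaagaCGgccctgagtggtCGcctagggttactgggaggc
The upstream window holds 2 CG dinucleotides and the downstream window 11, where the median over 27025 genes is 6. Neither window holds the CRX core, the NRL core or the TATA box.

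Dusp6, the phosphatase that fibroblast growth factor signalling induces and that switches ERK off, fell. It had 20.4, 17.6 and 26.3 CPM in SSCd D28, against 45.9, 44.1 and 53.2 CPM in SSCi D32, with a log2 fold change of -1.16 ± 0.20 (adjusted p = 0.0368, edgeR). The groups were far apart. SSCi D25 lay between them at 29.9 and 36.0 CPM. It was the only called gene of 18 tested members of the list of FGF feedback and MAPK targets, whose median log2 fold change was -0.42, against 0.03 over all genes. At an unadjusted p under 0.05, 7 members were lower and 1 was higher, where 3.14% of all genes were lower and 2.54% higher. Etv1, a transcription factor of that pathway, had 12.7, 15.2 and 11.8 CPM in SSCd D28, against 22.7, 24.5 and 22.6 CPM in SSCi D32 (adjusted p = 0.534, edgeR). Etv4 had 2.57, 3.59 and 2.94 CPM in SSCd D28, against 5.25, 7.20 and 4.95 CPM in SSCi D32. The feedback inhibitor Spry1 had 7.19, 8.13 and 4.71 CPM in SSCd D28, against 10.6, 12.8 and 13.7 CPM in SSCi D32. None of these 3 overlapped between groups and none passed the test. Summed over the list, SSCd D28 libraries held 257, 263 and 251 CPM, against 344, 340 and 349 CPM in SSCi D32, so the sum was almost the same within each group, SSCd D28 replicate 3 included.

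The other called genes were of low or moderate level. Prdx6, an antioxidant peroxiredoxin, fell to 85.0, 103 and 100 CPM in SSCd D28, against 191, 156 and 176 CPM in SSCi D32 (log2 fold change -0.86, adjusted p = 0.0489, edgeR). Frzb, a secreted Wnt antagonist, fell to 3.48, 5.38 and 5.40 CPM in SSCd D28, against 13.9, 11.4 and 15.0 CPM in SSCi D32 (-1.5, adjusted p = 0.0489). Efhd1, a calcium-binding mitochondrial protein, fell to 2.28, 1.97 and 1.09 CPM in SSCd D28, against 5.95, 6.22 and 7.42 CPM in SSCi D32 (-1.86, adjusted p = 0.026). Ppp1r17 had a similar difference from a low level. It fell to 1.77, 2.09 and 1.84 CPM in SSCd D28, against 6.96, 7.13 and 7.72 CPM in SSCi D32 (-1.93, adjusted p = 0.0489). Among the genes that rose, Pnoc, the precursor of the neuropeptide nociceptin, had 6.50, 6.94 and 4.65 CPM in SSCd D28, against 1.01, 0.979 and 0.728 CPM in SSCi D32 (2.72, adjusted p = 0.0307). Ppp1r1c, an inhibitor of protein phosphatase 1, had 5.42, 5.44 and 14.6 CPM in SSCd D28, against 0.316, 0.489 and 0.364 CPM in SSCi D32 (4.42, adjusted p = 0.0489). SSCd D28 replicate 3 was its highest library. The guanine nucleotide exchange factor gene Arhgef39 had 9.24, 13.7 and 9.57 CPM in SSCd D28, against 4.49, 4.54 and 4.51 CPM in SSCi D32 (1.26, adjusted p = 0.0307), and Arhgef37 had 14.7, 11.8 and 15.6 CPM in SSCd D28, against 4.87, 3.63 and 5.53 CPM in SSCi D32 (1.58, adjusted p = 0.0492). Of the calls, Arhgef37, Frzb, Ppp1r17, Ppp1r1c, Prdx6 and Tpm3 were, like Pcare, kept in 0 of the 6 leave-outs, while Dusp6, Efhd1 and Pnoc were kept in 1 and Arhgef39 in 2.

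**Figure D3:**
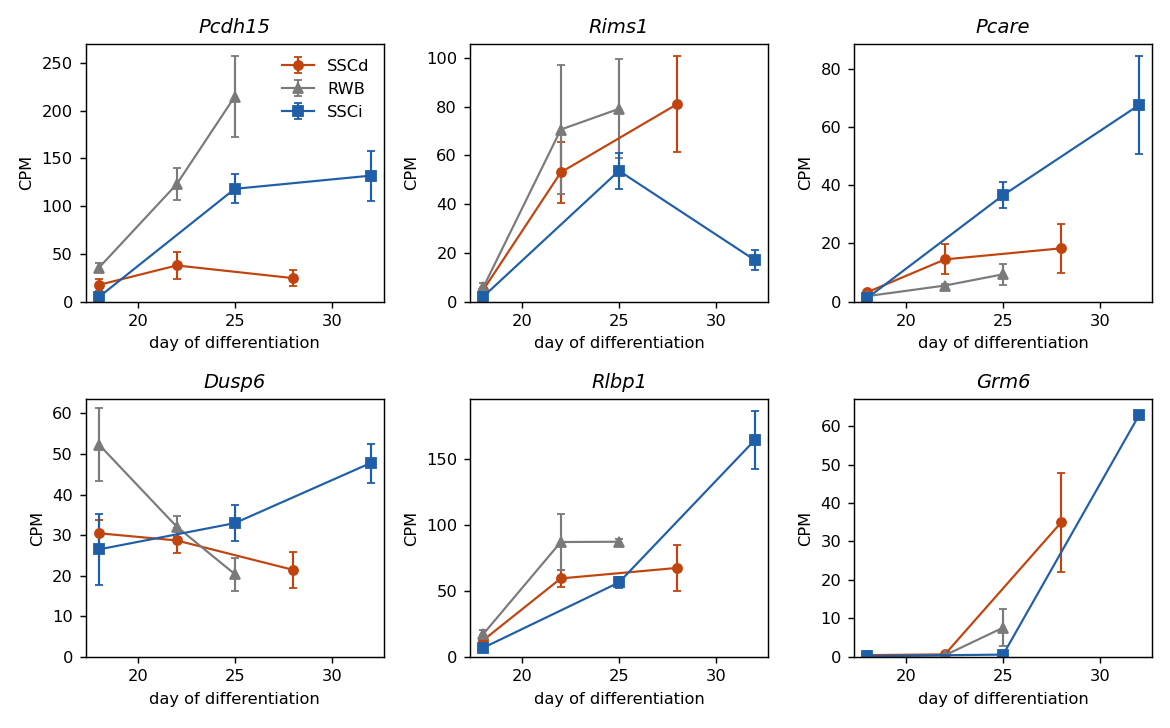
Mean CPM by day of differentiation for Pcdh15, Rims1, Pcare, Dusp6, Rlbp1 and Grm6 in SSCd (orange circles), RWB (grey triangles) and SSCi (blue squares), with bars of 1 SD over 2 or 3 libraries. Pcdh15 is lowest in SSCd at the last sampled days, Rims1 is lower at SSCi D32 than at SSCi D25, and Grm6 is near 0 in every group before SSCd D28 and SSCi D32 except RWB D25.

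Cell types are described next by gene lists, each given by the count of members that passed and by its median. Over all genes that median was 0.03, and at an unadjusted p under 0.05 2.54% of genes were higher and 3.14% lower. Fewer cells of a type and less RNA per cell cannot be told apart in bulk tissue. Members named here beyond the panel of 24 genes were chosen after their values were seen.

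Most rod genes overlapped between the endpoints. Of 32 tested rod genes 0 were called, and 28 were below 0 and 4 above, where 45.1% of all genes were below 0. The median log2 fold change was -0.32, and at an unadjusted p under 0.05 1 was higher and 4 were lower. Without SSCd D28 replicate 3 that median was -0.04 and 1 gene was lower. Without SSCd D28 replicate 1 it was -0.67 and 7 were lower. Nrl, the factor that commits a photoreceptor to the rod fate, had 1649, 1144 and 624 CPM in SSCd D28, against 1287, 1161 and 1293 CPM in SSCi D32. Gnat1, rod transducin, had 137, 110 and 26.7 CPM in SSCd D28, against 142, 88.9 and 110 CPM in SSCi D32. For Nrl the dissected libraries spread above and below the intact ones, and for Gnat1 the first 2 lay within the intact range and replicate 3 below it. Crx had 1779, 1512 and 1125 CPM in SSCd D28, against 1580, 1393 and 1532 CPM in SSCi D32, and Nr2e3 had 897, 534 and 293 CPM in SSCd D28, against 786, 671 and 764 CPM in SSCi D32. Some phototransduction and retinoid genes were lower in all 3 dissected libraries and not in replicate 3 alone. Pde6a, the phosphodiesterase subunit of the rod cascade, had 21, 20.3 and 7.93 CPM in SSCd D28, against 75.7, 44.3 and 65.2 CPM in SSCi D32 (log2 fold change -1.91 ± 0.47, adjusted p = 0.182, edgeR). Rbp3, the retinoid carrier of the space around outer segments, had 4764, 2729 and 2172 CPM in SSCd D28, against 7035, 5487 and 6767 CPM in SSCi D32. For both genes the groups did not overlap, yet neither passed the test. Of the 32 rod genes, 6 were lower without overlap and 0 higher, where 8.62% of all genes were lower and 9.08% higher in that sense. The 28 tested genes of the photoreceptor cilium had a median of -0.10, or 0.01 without SSCd D28 replicate 3, with 0 called. Of these 23 were below 0 and 5 above, and that list does not hold Pcare.

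Cone genes showed no shared direction. Of 16 tested, 0 were called and the median was -0.09, or 0.14 without SSCd D28 replicate 3 and -0.23 without replicate 2. Members below 0 numbered 9 and those above 0 7. At an unadjusted p under 0.05 2 were higher and 1 lower, where 2.54% of all genes were higher and 3.14% lower. Without overlap 4 were higher and 1 lower, where 9.08% of all genes were higher and 8.62% lower. Opn1sw, the short-wave cone opsin, had 13.1, 15.9 and 4.17 CPM in SSCd D28, against 29.0, 8.60 and 22.8 CPM in SSCi D32, with overlap. Arr3, cone arrestin, had 2.80, 4.48 and 5.40 CPM in SSCd D28, against 9.49, 4.54 and 5.46 CPM in SSCi D32, and Gnat2 had 9.75, 10.3 and 4.99 CPM in SSCd D28, against 11.5, 5.31 and 9.10 CPM in SSCi D32. Both overlapped. The medium-wave opsin Opn1mw was listed at 0, 0.239 and 0 CPM in SSCd D28, against 1.96, 3.50 and 1.46 CPM in SSCi D32 (adjusted p = 0.44, edgeR). Its counts were too few for a firm difference. Ccdc136 had 192, 171 and 169 CPM in SSCd D28, against 123, 109 and 115 CPM in SSCi D32 (adjusted p = 0.273).

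Bipolar and synaptic genes of the rod pathway were present at both endpoints. The ribbon synapse list had a median of -0.32 over 17 tested genes with 0 called, or -0.16 without SSCd D28 replicate 3, and the ON bipolar cascade -0.22 over 18 with 0 called. Of the ribbon synapse genes 16 were below 0 and 1 above, and of the ON bipolar genes 13 and 5, where 45.1% of all genes were below 0. Grm6, the glutamate receptor with which ON bipolar cells read photoreceptors, had 20.2, 42.1 and 42.7 CPM in SSCd D28, against 61.8, 62.7 and 63.8 CPM in SSCi D32 (log2 fold change -0.84 ± 0.41, adjusted p = 0.893, edgeR). Gpr179, a partner of that cascade, had 12.2, 23.1 and 16.1 CPM in SSCd D28, against 37.0, 34.0 and 44.6 CPM in SSCi D32 (adjusted p = 0.511). Neither gene overlapped between groups. Prkca, a kinase of rod bipolar cells, had 112, 117 and 160 CPM in SSCd D28, against 124, 120 and 112 CPM in SSCi D32, and Vsx1 had 3.94, 6.22 and 6.36 CPM in SSCd D28, against 6.52, 5.59 and 5.90 CPM in SSCi D32. Cplx4, a complexin of ribbon synapses, had 55.0, 48.8 and 16.2 CPM in SSCd D28, against 88.8, 61.5 and 81.7 CPM in SSCi D32 (adjusted p = 0.643). Of 24 tested genes of the presynaptic vesicle list, Rims1 alone was called, and the median was -0.01, or -0.11 without SSCd D28 replicate 3.

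Horizontal, amacrine and ganglion cell lists leaned in different directions. The horizontal list had a median of -0.29 over 11 genes, or -0.58 without SSCd D28 replicate 3, and Tpm3, described above, was its only called member. Prox1, a transcription factor of horizontal and AII amacrine cells, had 49.7, 64.2 and 77.0 CPM in SSCd D28, against 110, 109 and 114 CPM in SSCi D32 (log2 fold change -0.81 ± 0.28, adjusted p = 0.534, edgeR). Onecut1 had 6.45, 10.2 and 8.75 CPM in SSCd D28, against 12.5, 14.4 and 13.6 CPM in SSCi D32. Both were lower without overlap, while Calb1, a calcium buffer of horizontal cells, had 18.0, 26.9 and 39.5 CPM in SSCd D28, against 17.1, 18.9 and 16.1 CPM in SSCi D32. The amacrine list had a median of 0.28 over 25 genes with 0 called, and -0.13 without SSCd D28 replicate 3, so its direction turned with that library. Gad1, which makes GABA, had 122, 160 and 282 CPM in SSCd D28, against 126, 213 and 129 CPM in SSCi D32. The GABA receptor gene Gabra2 had 19.8, 22.6 and 81.9 CPM in SSCd D28, against 21.9, 21.4 and 11.8 CPM in SSCi D32. Both were highest in SSCd D28 replicate 3. Calb2, calretinin, had 82.4, 88.7 and 120 CPM in SSCd D28, against 43.8, 66.5 and 35.0 CPM in SSCi D32 (adjusted p = 0.322), and Ebf3 had 12.6, 17.2 and 13.1 CPM in SSCd D28, against 34.9, 33.7 and 37.8 CPM in SSCi D32 (adjusted p = 0.168). The ganglion cell list had a median of 0.46 over 20 genes with 0 called, and 0.70, 0.30 or 0.26 without SSCd D28 replicate 1, 2 or 3. Of its members 14 were above 0 and 6 below. At an unadjusted p under 0.05 4 were higher and 2 lower, where 2.54% of all genes were higher and 3.14% lower. The ganglion cell marker Sncg had 3.96 to 15.2 CPM in SSCd D28, against 2.80 to 3.64 CPM in SSCi D32. Nefl, a listed neurofilament that other neurons share, went the other way. It had 41.0, 54.4 and 39.4 CPM in SSCd D28, against 90.3, 100 and 95.4 CPM in SSCi D32 (log2 fold change -1.09 ± 0.23, adjusted p = 0.0863, edgeR).

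Müller glia genes were lower in SSCd D28 without passing the test. Of 23 tested, 0 were called. At an unadjusted p under 0.05 11 were lower and 0 higher, where 3.14% of all genes were lower. Without overlap 12 were lower, where 8.62% of all genes were, and the median was -0.49, or -0.47 with 7 lower without SSCd D28 replicate 3. Rlbp1, the retinoid-binding protein CRALBP, had 77.5, 77.4 and 47.3 CPM in SSCd D28, against 174, 139 and 180 CPM in SSCi D32 (log2 fold change -1.28 ± 0.25, adjusted p = 0.0567, edgeR). Crym, a thyroid hormone binding protein, had 158, 138 and 203 CPM in SSCd D28, against 453, 246 and 365 CPM in SSCi D32 (-1.10 ± 0.21, adjusted p = 0.0567). Without SSCi D32 replicate 2 Crym was called (-1.30, adjusted p = 0.0231, edgeR). The glutamate transporter gene Slc1a3 had 63.4, 102 and 64.0 CPM in SSCd D28, against 162, 149 and 159 CPM in SSCi D32 (-1.04 ± 0.32, adjusted p = 0.405). All 3 were separated without overlap. The potassium channel gene Kcnj10 had 6.16, 5.86 and 4.78 CPM in SSCd D28, against 14.2, 12.7 and 9.24 CPM in SSCi D32. Gpr37 had 65.8, 65.4 and 70.5 CPM in SSCd D28, against 144, 94.9 and 137 CPM in SSCi D32. Glul, glutamine synthetase, did not share the difference, with 257, 196 and 246 CPM in SSCd D28, against 246, 235 and 231 CPM in SSCi D32 (-0.02 ± 0.17). Summed over the list, SSCd D28 held 2155, 1884 and 1888 CPM, against 3142, 2605 and 2965 CPM in SSCi D32.

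The list of genes that rise in stressed Müller glia had the lowest median of the 48 lists, -0.74 over 16 genes. Of these 0 were called, and 8 were lower and 0 higher at an unadjusted p under 0.05, where 3.14% of all genes were lower and 2.54% higher. Edn2, an endothelin that injured mouse photoreceptors switch on, had 0.171, 0.239 and 0.0683 CPM in SSCd D28, against 6.90, 2.45 and 4.22 CPM in SSCi D32 (log2 fold change -4.74 ± 0.82, adjusted p = 0.0567, edgeR). Socs3, a feedback inhibitor of cytokine signalling, had 5.08, 5.68 and 5.19 CPM in SSCd D28, against 26.7, 13.2 and 11.9 CPM in SSCi D32 (adjusted p = 0.107). Stat3, its upstream factor, had 109, 71.1 and 82.1 CPM in SSCd D28, against 189, 132 and 150 CPM in SSCi D32. These genes were lower in each dissected library. Fgf2 had 40.1, 33.8 and 3.48 CPM in SSCd D28, against 87.1, 84.2 and 106 CPM in SSCi D32, so replicate 3 was far below the others. Cebpd had 4.05, 4.07 and 5.33 CPM in SSCd D28, against 19.4, 11.5 and 14.7 CPM in SSCi D32. At SSCi D25 the Müller and reactive lists summed to 1940 and 2250 CPM and to 388 and 376 CPM, values close to those of SSCd D28. Members of the reactive list differed both ways from that day, with 3 called higher and 2 lower in SSCd D28 and a median of 0.73. H2-D1, a class I antigen-presenting molecule, had 62.7, 55.9 and 60.6 CPM in SSCd D28, against 153, 111 and 141 CPM in SSCi D32 (adjusted p = 0.256).

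Immediate early genes had a median of -0.55 over 21 with 0 called, and 6 were lower and 0 higher at an unadjusted p under 0.05, where 3.14% of all genes were lower. Fos, which cells induce within minutes of a stimulus and also during handling, had 10.3, 7.35 and 70.7 CPM in SSCd D28, against 139, 72.3 and 46.7 CPM in SSCi D32 (adjusted p = 0.758, edgeR). Fosb had 4.85, 2.57 and 4.30 CPM in SSCd D28, against 26.7, 12.4 and 6.41 CPM in SSCi D32. SSCd D28 replicate 3 overlapped the intact libraries for Fos but not for Fosb. Without that replicate Fos was called (log2 fold change -3.28, adjusted p = 0.0414, edgeR), against -1.55 with it. The 31 genes of glycolysis and the hypoxia response had a median of -0.09 with 0 called, and 0.11 or -0.21 without SSCd D28 replicate 1 or 3. Aldoc had 273, 286 and 261 CPM in SSCd D28, against 292, 325 and 336 CPM in SSCi D32, and Pdk1 had 126, 228 and 240 CPM in SSCd D28, against 171, 220 and 193 CPM in SSCi D32.

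**Figure D4:**
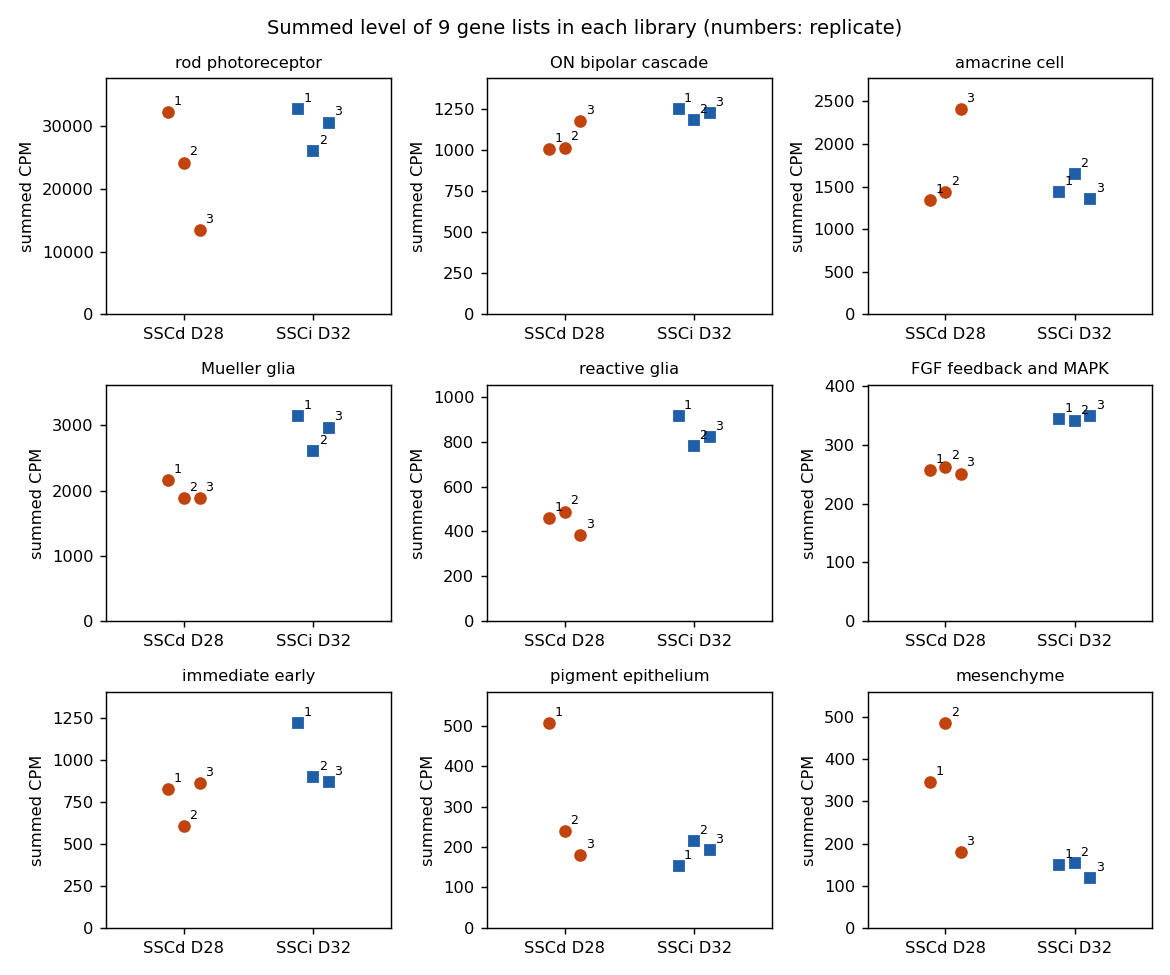
Summed TMM-scaled CPM of 9 gene lists in each library, SSCd D28 left of SSCi D32, with replicate numbers beside the points. Sums for FGF feedback and MAPK, Müller glia and reactive glia do not overlap, and rod sums of SSCd D28 spread from 13420 to 32160 CPM. The pigment epithelium sum is highest in SSCd D28 replicate 1, and that of replicate 3 lies within the SSCi D32 range.

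Pigment cell and mesenchyme genes were uneven across the dissected libraries. Of 18 tested pigment epithelium genes 0 were called, 10 were higher and 1 lower at an unadjusted p under 0.05, where 2.54% of all genes were higher and 3.14% lower, and the median was 2.04. The list summed to 507, 240 and 179 CPM in SSCd D28, against 153, 215 and 192 CPM in SSCi D32. Tyr, the first enzyme of melanin synthesis, had 36.3, 5.32 and 3.01 CPM in SSCd D28, against 0.570, 3.01 and 0.728 CPM in SSCi D32 (adjusted p = 0.472, edgeR), and Dct, a later enzyme, had 130, 36.5 and 16.9 CPM in SSCd D28, against 8.67, 16.5 and 14.8 CPM in SSCi D32. The signal was highest in replicate 1, and without it 3 members were higher, with a median of 1.19. Leaving out replicate 2 or 3 gave 12 or 10 higher, with medians of 2.21 or 2.26. In 7 pigment members the dissected libraries were higher without overlap and in 1 lower, where 9.08% of all genes were higher and 8.62% lower. The mesenchyme list had a median of 1.55 over 16 genes with 0 called and 7 higher at an unadjusted p under 0.05, against 2.54% of all genes. It summed to 346, 486 and 179 CPM in SSCd D28, against 149, 153 and 118 CPM in SSCi D32. Col1a2, a fibrillar collagen, had 58.9, 76.6 and 6.90 CPM in SSCd D28, against 10.2, 7.13 and 3.28 CPM in SSCi D32 (adjusted p = 0.774). Here replicates 1 and 2 were high and replicate 3 overlapped the intact libraries. Without replicate 1, 2 or 3 there were 2, 0 or 8 higher members. In 6 mesenchyme members the dissected libraries were higher without overlap and in 0 lower.

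The same SSCd D28 libraries were set against SSCi D25 as the other intact day near D28, and they share those libraries with the endpoint comparison. Here 1170 genes were called (6.97%), 462 higher (2.75%) and 708 lower (4.22%) in SSCd D28, with an all-gene median of 0.04. Of 30 tested cell cycle genes 27 were called lower and 0 higher, and all 30 were below 0, with a median of -1.83. The endpoint comparison called 0 of them and had a median of 0.17, or -0.14 and 0.32 without SSCd D28 replicates 2 and 3. Mki67, a marker of dividing cells, fell to 29.4, 47.7 and 13.8 CPM in SSCd D28, against 214 and 184 CPM in SSCi D25 (adjusted p = 0.000541, edgeR). SSCi D32 had 26.1, 19.6 and 21.3 CPM, within the range of SSCd D28. Of 20 progenitor genes 11 were called lower and 0 higher, with 19 below 0. Fgf15 had 3.08, 7.41 and 2.39 CPM in SSCd D28, against 41.4 and 43.5 CPM in SSCi D25. Of 16 neurogenic genes 11 were called lower and 1 higher, with 15 below 0. Rod and bipolar genes moved the other way, with 9 of 32 rod genes called higher and 0 lower (median 1.06), 8 of 17 ribbon synapse genes higher and 5 of 18 ON bipolar genes higher. Gnat1 rose to 137, 110 and 26.7 CPM in SSCd D28, against 4.51 and 4.12 CPM in SSCi D25 (log2 fold change 4.40, adjusted p = 0.00034). Grm6 rose to 20.2, 42.1 and 42.7 CPM in SSCd D28, against 0.634 and 0.5 CPM in SSCi D25 (log2 fold change 5.93 ± 0.65, adjusted p = 2.21e-05). Opn1sw fell to 13.1, 15.9 and 4.17 CPM in SSCd D28, against 101 and 94.7 CPM in SSCi D25 (log2 fold change -3.15, adjusted p = 0.00105). For each of these 5 genes the mean of SSCd D28 was nearer to SSCi D32 than to SSCi D25. All 5 were far from SSCi D25 and not called between the endpoints, so that nearness follows from their choice. It does not tell which intact day SSCd D28 resembles more. Rims1, Pcare and Dusp6, described above, were nearer to SSCi D25. Without SSCi D25 replicate 1 or 2 there were 498 or 346 calls.

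**Figure D5:**
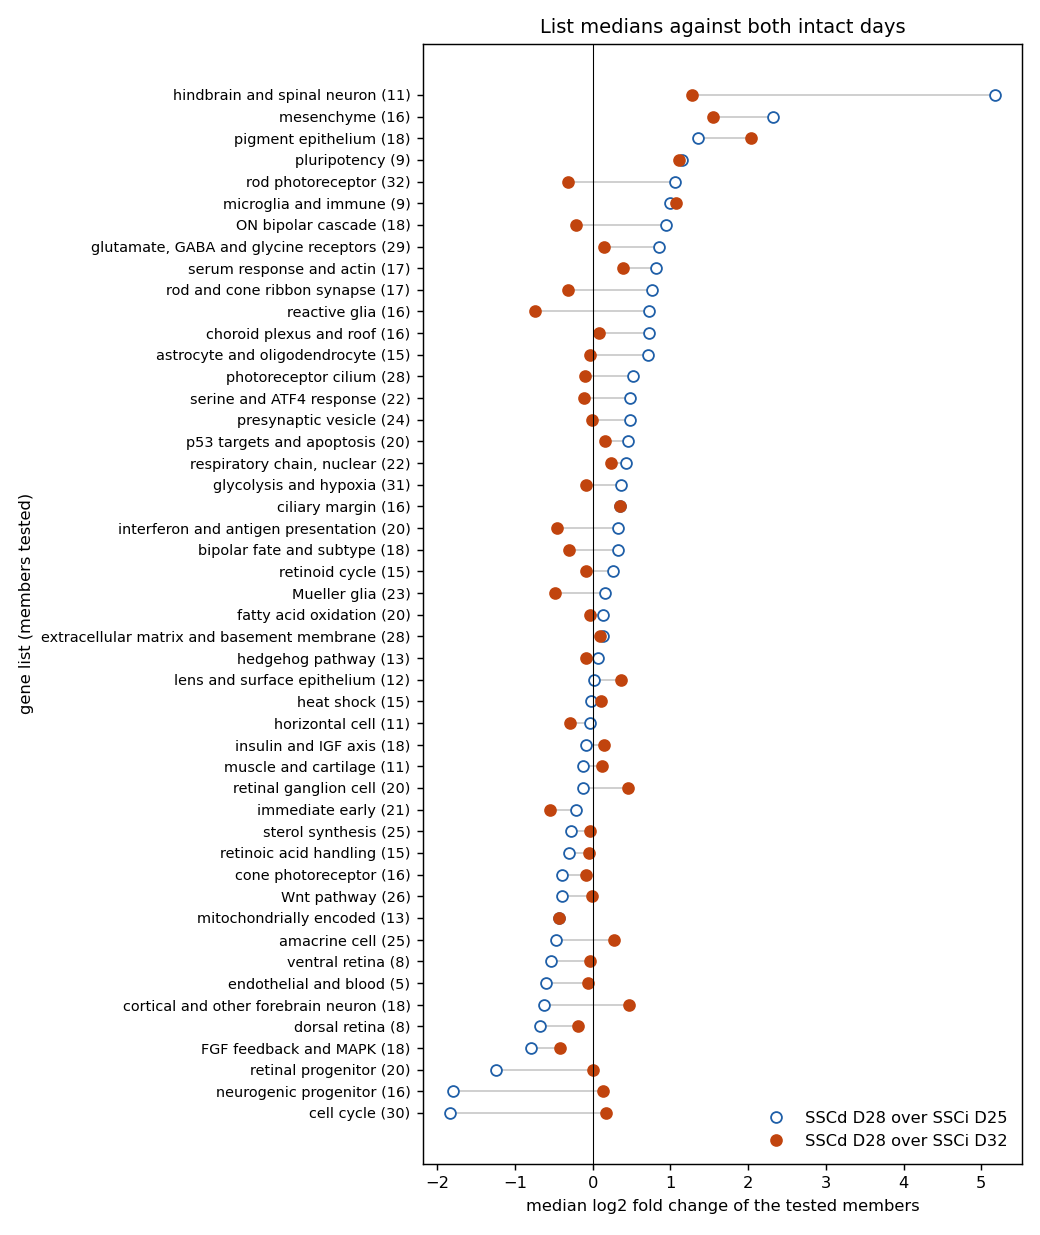
Median log2 fold change of tested members of each gene list with at least 5 tested genes, for SSCd D28 over SSCi D25 (open circles) and over SSCi D32 (filled circles); numbers tested stand beside the names. The cell cycle median is -1.83 against SSCi D25 and 0.17 against SSCi D32, and the rod median 1.06 and -0.32, while FGF feedback and MAPK is below 0 against both days.

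A straight line on the log scale between SSCi D25 and SSCi D32, read at D28, gave a level of equal age. It assumes even change between the sampled days and leaves the difference in supplements. Against it 247 genes were called (1.47%), 104 higher (0.619%) and 143 lower (0.852%). Pcdh15 fell by 2.33 on the log2 scale (adjusted p = 0.000499, edgeR), Efhd1 by 1.67 and Tpm3 by 0.77. Pcare fell by 1.38 (adjusted p = 0.0405) and Dusp6 by 0.85 (adjusted p = 0.0276). Rims1 rose by 1.30 (adjusted p = 0.0162) and Ppp1r1c by 5.51. Grm6 rose by 3.03, Vsx1 by 2.25 and Gnat1 by 2.38. Of 18 ON bipolar genes 2 were called higher and 0 lower, with a median of 0.34. Of 18 bipolar fate and subtype genes 3 were called higher and 1 lower, with a median of 0.14. The rod list had 3 of 32 called higher and 0 lower, so the named genes do not stand for their whole lists. Socs3 fell by 1.56 (adjusted p = 0.0286). Rlbp1 differed by -0.40 (adjusted p = 0.476), and the Müller glia list had a median of -0.14 with 1 of 23 genes called lower and 0 higher. Of 18 FGF feedback and MAPK genes 2 were called lower and 0 higher, with 15 below 0 and a median of -0.64. Leaving out 1 library left between 37 calls, without SSCi D25 replicate 2, and 193, without SSCd D28 replicate 2.

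The change since day 18 was tested as the endpoint difference less the difference at D18. It called 213 genes (1.27%), 189 higher (1.13%) and 24 lower (0.143%), but the count changed with most libraries. Without SSCi D18 replicate 1, where mesenchyme markers were high, 1 gene was called, Pcdh15, at a log2 difference of -4.12 (adjusted p = 0.0235, edgeR), and without SSCi D18 replicate 2 there were 872. Without SSCi D32 replicate 1, 2 or 3 there were 5, 12 or 6, without SSCd D18 replicate 1, 2 or 3 there were 55, 7 or 8, and without SSCd D28 replicate 1, 2 or 3 there were 57, 56 or 187. Pcdh15 averaged 17.5 ± 6.63 CPM in SSCd D18 (SD, n = 3) and 4.91 ± 0.64 CPM in SSCi D18 (n = 2). Its mean was higher in dissected tissue at D18 and lower at the endpoint, a difference of differences of -4.25 ± 0.48 with all libraries (adjusted p = 0.000395).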

How the data were processed

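Bulk polyadenylated RNA was sequenced from stranded paired-end libraries, per the labels' protocols. Build GRCm38.p5 and the tools limma 3.32.2, edgeR 3.13.9 and kallisto 0.42.5 appear in the submitters' processing notes without roles; which annotation release was used is not given in the sources used here. Estimated counts of 33846 genes, 42.1% of them whole numbers, make up the deposited gene table, and a deposited transcript table holds estimated counts of 105129 transcripts. The deposited normalized table, treated as a score, is proportional to the CPM of the gene table within each library and was used only for that check.

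Groups and replicate numbers come from the titles. Estimated counts were rounded, filtered with filterByExpr by group, which left 16792 genes, scaled by TMM and fitted in edgeR 4.0.16 under R 4.3.3 (robust quasi-likelihood with all 24 libraries and 9 group means; the biological coefficient of variation had a median of 0.256). Totals ranged from 13284632 to 21604446. P-values were adjusted by Benjamini-Hochberg over all genes, with a threshold of 0.05. SE is the absolute log2 fold change divided by the square root of F. Transcript CPM use library totals without TMM. The test was checked on simulated counts with 200 changed genes, none of the lowest levels. The endpoint comparison recovered 37% of 2-fold and 92% of 4-fold changes, and 5 of its 134 calls were false. The comparison with D18 recovered 4% and 62%. Positions and transcripts come from GENCODE M21 and gene symbols were found for 33331 IDs. Promoter windows are RefSeq's on GRCm38.p6, cut to the 250 bases before the start, and windows on chromosome 18 were left out.

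Genes were named by a rule: called genes whose libraries did not overlap and whose log2 CPM averaged 3 or more (up to 12 per direction, 8 genes), called members of 48 lists (860 genes, 814 tested), a panel of 24, and further genes chosen after their values were seen. Rpe65 of the panel did not pass the filter. The members and lists were chosen with earlier results of these data known. Alternatives were RLE scaling, no filter, limma-voom, DESeq2 1.42.0, a replicate block, the 6 libraries alone, a minimum fold change of 1.5, leaving out each library and, added after seeing the data, leaving out RWB.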

Additional observations from a re-analysis of the deposited data

Results flagged for a closer look

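For 13 named genes the difference between dissected and intact tissue at the endpoints differed from that at D18 by a test of the difference itself, the interaction term of the edgeR fit. The values below are log2 differences, SSCd less SSCi at the endpoint minus SSCd less SSCi at D18. Pcdh15 had -4.25, and it was still called without SSCi D18 replicate 1 (-4.12, adjusted p = 0.0235) and without SSCi D18 replicate 2 (-4.45). The other 12 were not called without SSCi D18 replicate 1.

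Of the lists, 2 of 32 rod genes were called lower and 1 higher relative to D18, and 3 of 23 Müller glia genes lower and 1 higher. Over all genes 0.143% were called lower and 1.13% higher, and these shares include the calls lost without SSCi D18 replicate 1. Pcare had -3.27 and -2.85 without that library (adjusted p = 0.684). The rod phosphodiesterase gene Pde6a had -5.75 and -4.82 without it, and the matrix gene Impg2 had -1.5 and -1.84. The glial genes Rlbp1 and Crym had -2.17 and -2.22, with -1.77 and -2.04 without it. Dusp6 had -1.36 and -1.05 without it, and Ppp1r17 had -2.49 and -2.28. Arhgef39, higher relative to D18, had 1.28 and 1.30 without it. All of these calls were lost without it.

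The genes below, of 3 collagens and Lrat, were higher relative to D18. Col1a2 had 10.37, Col3a1 11.07 and Col1a1 9.12. Without SSCi D18 replicate 1 they had 2.93, 2.81 and 2.59, and that library held the 8518 CPM of mesenchyme markers. Lrat, a retinoid esterase of pigment epithelium, had 5.37 and 4.16 without it.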

How the results depend on the processing

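Where the endpoint comparison had 14 calls, limma-voom gave 35 and DESeq2 105, each with all 14 kept, the 6 libraries alone 25 with 6 kept, a minimum fold change of 1.5 gave 3, and leaving out 1 library 1 to 7. Against SSCi D25, DESeq2 gave 1782 calls and leave-outs 346 to 890. Against the interpolated level DESeq2 gave 704 and leave-outs 37 to 193. For the change since D18, no filter gave 44, limma-voom 8, DESeq2 450, omitting RWB 8 and leave-outs 1 to 872. The cause was not tested. RLE scaling kept 13 of the 14 endpoint calls, and omitting RWB kept 10.

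Same-numbered deviations of the 2 groups correlated weakly, at 0.062, 0.082 and -0.015, against -0.082 to 0.025 for differently numbered ones. Whether a replicate number marks a shared experiment cannot be decided from values this small. With the replicate block there were 18 endpoint calls, 1762 against SSCi D25, 539 against the interpolated level and 30 for the change since D18. In the 6 libraries alone with the replicate block edgeR gave 0 calls, with 1630 genes at an unadjusted p under 0.05.

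Signs turned only in genes that were not called. With 1 library left out the endpoint log2 fold change ranged from -0.50 to 0.16 for Nrl, -0.73 to 0.12 for Gnat1, -0.19 to 0.13 for Crx, -0.30 to 0.22 for Gnat2, -0.24 to 0.07 for Vsx1, -0.06 to 0.22 for Prkca, -0.15 to 0.56 for Gad1, -0.10 to 0.09 for Glul, -0.60 to 0.33 for Fgf15, -0.05 to 0.78 for Mki67 and -0.13 to 0.27 for Pdk1. Fgf15, at 0.05, had -0.11 in limma-voom, -0.09 with the replicate block and -0.11 in the 6 libraries with the block, and Pdk1, at 0.03, had -0.02 in limma-voom and -0.02 in the 6 libraries with the block.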

Other observations

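All 13 mitochondrially encoded genes had endpoint log2 fold changes below 0, with a median of -0.43 and 0 called by edgeR, and summed to 36390, 36030 and 27210 CPM in SSCd D28, against 38640, 39290 and 42570 CPM in SSCi D32. Of 22 nuclear genes of the respiratory chain 20 were above 0, with a median of 0.23. They summed to 5390, 4674 and 4505 CPM in SSCd D28, against 4550, 4043 and 4315 CPM in SSCi D32, with overlap and with 0 called. At an unadjusted p under 0.05 both lists had 0 genes higher and 0 lower. In an alternative without SSCd D28 replicate 3 the medians were -0.23 and 0.27, and without replicate 1 they were -0.58 and 0.13.

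Ciliary margin genes summed to 247, 285 and 173 CPM in SSCd D28, against 424, 351 and 400 CPM in SSCi D32, without overlap, although their median over 16 genes was 0.35. Of these 0 were called, and 4 were higher and 3 lower at an unadjusted p under 0.05. Without overlap 3 were higher and 4 lower. Over all genes 2.54% were higher and 3.14% lower by unadjusted p, and 9.08% and 8.62% without overlap. Col9a1, a fibril-associated collagen in that list, had 56.1, 59.3 and 26.2 CPM in SSCd D28, against 189, 109 and 168.5 CPM in SSCi D32 (log2 fold change -1.72 ± 0.37, adjusted p = 0.105). Interferon and antigen presentation genes summed to 273, 255 and 248 CPM in SSCd D28, against 406, 353 and 400 CPM in SSCi D32. Their median was -0.46 over 20 genes with 0 called. At an unadjusted p under 0.05 2 were lower and 0 higher, where 3.14% of all genes were lower and 2.54% higher.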
